A study of Homo sapiens with 12 samples.

Results

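Nuclear genes of the mitochondrial respiratory chain and the ATP synthase were followed on 12 Affymetrix arrays of SK-MEL-2, an established human melanoma cell line with a mutated NRAS. The genes were chosen by symbol, as those that begin with NDUFA, NDUFB, NDUFC, NDUFS, NDUFV, UQCR, COX4 to COX8 or ATP5, or are SDHA, SDHB, SDHC or SDHD, and hold no hyphen. Of 14582 genes named on the arrays 28 met that rule, each read through its brightest probe set. The set is mostly cytochrome c oxidase. It holds 17 genes of complex IV, 6 of complex III (1 of them the pseudogene UQCRBP1), 3 of the ATP synthase and 2 assembly factors of complex I. Subunit genes of complexes I and II and catalytic subunits of the ATP synthase are not analysed here, so the values speak for complex IV and parts of complex III and not for the whole chain.

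Cells had been treated for 24 hours, with 3 arrays per arm. The arms were 100 nM dabrafenib combined with 10 nM trametinib (DT), 1 µM entinostat (E), the 3 agents together at the same doses (DTE), and the vehicle DMSO. Dabrafenib blocks RAF kinases, trametinib blocks the kinases MEK1 and MEK2 below RAF, and entinostat is an inhibitor of histone deacetylases of class I. The layout crosses kinase inhibition with deacetylase inhibition, so each can be read alone, on top of the other, and as a departure from additivity. All arms come from 1 cell line, and ERCC spike-in RNA went into each extraction per the labels. Titles describe the replicates as biological while the design text describes them as technical, and p-values here measure the spread between arrays and nothing more.

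The respiratory chain passes electrons from NADH and succinate to oxygen and pumps protons across the inner mitochondrial membrane, and the ATP synthase uses the returning protons to make ATP. Most subunits are encoded in the nucleus, and dedicated factors help each complex to assemble. In melanoma the lineage factor MITF can raise respiratory genes through the coactivator PGC-1α. NRF1 and ETS family factors such as GABP are textbook regulators of respiratory promoters.

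Promoters of 6 genes that the results turn on are shown as the last 120 bases before the RefSeq transcription start (GRCh38.p14, sequences from RefSeq, 5′ to 3′ on the gene's strand). Capitals mark matches to the NRF1 consensus motif (UQCRC1) or to the ETS motif CCGGAAG (UQCRH, COX8A and COX5B) on either strand. UQCRC1 is shown for its higher level under entinostat. UQCRH, COX8A, COX5B and NDUFAF8 are shown for their lower level under all 3 agents, and COX7C as a gene whose direction depended on the scaling.
UQCRC1, chr3:48609647-48609766, minus strand: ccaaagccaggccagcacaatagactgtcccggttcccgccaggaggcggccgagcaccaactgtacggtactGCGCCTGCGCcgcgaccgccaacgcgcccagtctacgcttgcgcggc
UQCRH, chr1:46303578-46303697, plus strand: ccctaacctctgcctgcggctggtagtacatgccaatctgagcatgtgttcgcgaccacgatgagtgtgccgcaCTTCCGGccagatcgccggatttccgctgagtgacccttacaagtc
COX8A, chr11:63974500-63974619, plus strand: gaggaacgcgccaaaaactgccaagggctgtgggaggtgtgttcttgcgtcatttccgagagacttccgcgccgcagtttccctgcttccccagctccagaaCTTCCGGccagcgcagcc
COX5B, chr2:97645942-97646061, plus strand: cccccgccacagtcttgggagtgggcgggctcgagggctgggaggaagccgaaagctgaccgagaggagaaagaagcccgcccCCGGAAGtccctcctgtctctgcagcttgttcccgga
NDUFAF8, chr17:81239794-81239913, plus strand: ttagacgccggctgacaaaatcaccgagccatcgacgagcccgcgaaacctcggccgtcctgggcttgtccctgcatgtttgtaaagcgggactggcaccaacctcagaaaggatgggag
COX7C, chr5:86617821-86617940, plus strand: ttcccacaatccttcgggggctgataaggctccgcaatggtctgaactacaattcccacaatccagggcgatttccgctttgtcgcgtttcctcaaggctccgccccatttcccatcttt

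A RefSeq promoter was matched for 22 of the 28 genes and searched over 250 bases before the start. The NRF1 motif was found in 3 of them (ATP5MJ, COX8C and UQCRC1), or 13.6%, against 7.93% of 10562 measured genes with a promoter. The ETS motif was found in 6 (ATP5MK, COX5B, COX6A1, COX6B1, COX8A and UQCRH), or 27.3%, against 12.5% of all. ATP5MK held 2 ETS matches that overlap each other, and no other matches overlapped. The YY1 motif AAGATGGC and the E-box CACGTG were found in 0 of the 22 windows, against 1.49% and 7.92% of all. These are letter matches in a short window and were not tested against the expression values.

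The members spanned nearly the whole range of the arrays. COX4I1, the ubiquitous form of the largest nuclear-coded subunit of complex IV, was brighter than 99.9% of named genes. Its intensities were 2690, 2722 and 3060 in DT, 3239, 3393 and 3521 in E, 1776, 1863 and 1748 in DTE, and 3437, 3451 and 3169 in DMSO, so its DTE arrays lay below all others, and E and DMSO overlapped. UQCRHL was about as bright, at 2324, 2212 and 2354 in DT, 2654, 3081 and 3282 in E, 1612, 1732 and 1542 in DTE, and 3141, 3221 and 2981 in DMSO. It is an intronless copy of UQCRH, whose transcripts its probes may bind, which was not tested. Of the 28 genes 16 were among the brightest 25% of all genes.

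At the dim end stood forms of complex IV known from particular tissues. For each array the dimmest 25% of genes set a background level, their 95th percentile, of 10.3 to 15.3, and a gene whose arm mean did not pass the arm's level is called not well above background. COX7A1, the heart and muscle form of COX7A, was not well above background in any arm, and neither was the pseudogene UQCRBP1. COX6B2 and COX8C, both known from testis, were not well above background in DT and DMSO. COX6A2, the muscle form of COX6A, averaged 14.7 ± 0.999 in DT, 14.7 ± 1.38 in E, 11.8 ± 1.87 in DTE and 12.8 ± 0.601 in DMSO (SD, n = 3 each). COX7B2, also described as a testis form, was bright in this line, at 302, 285 and 304 in DT, 453, 488 and 546 in E, 231, 247 and 206 in DTE, and 414, 447 and 334 in DMSO.

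**Figure D1:**
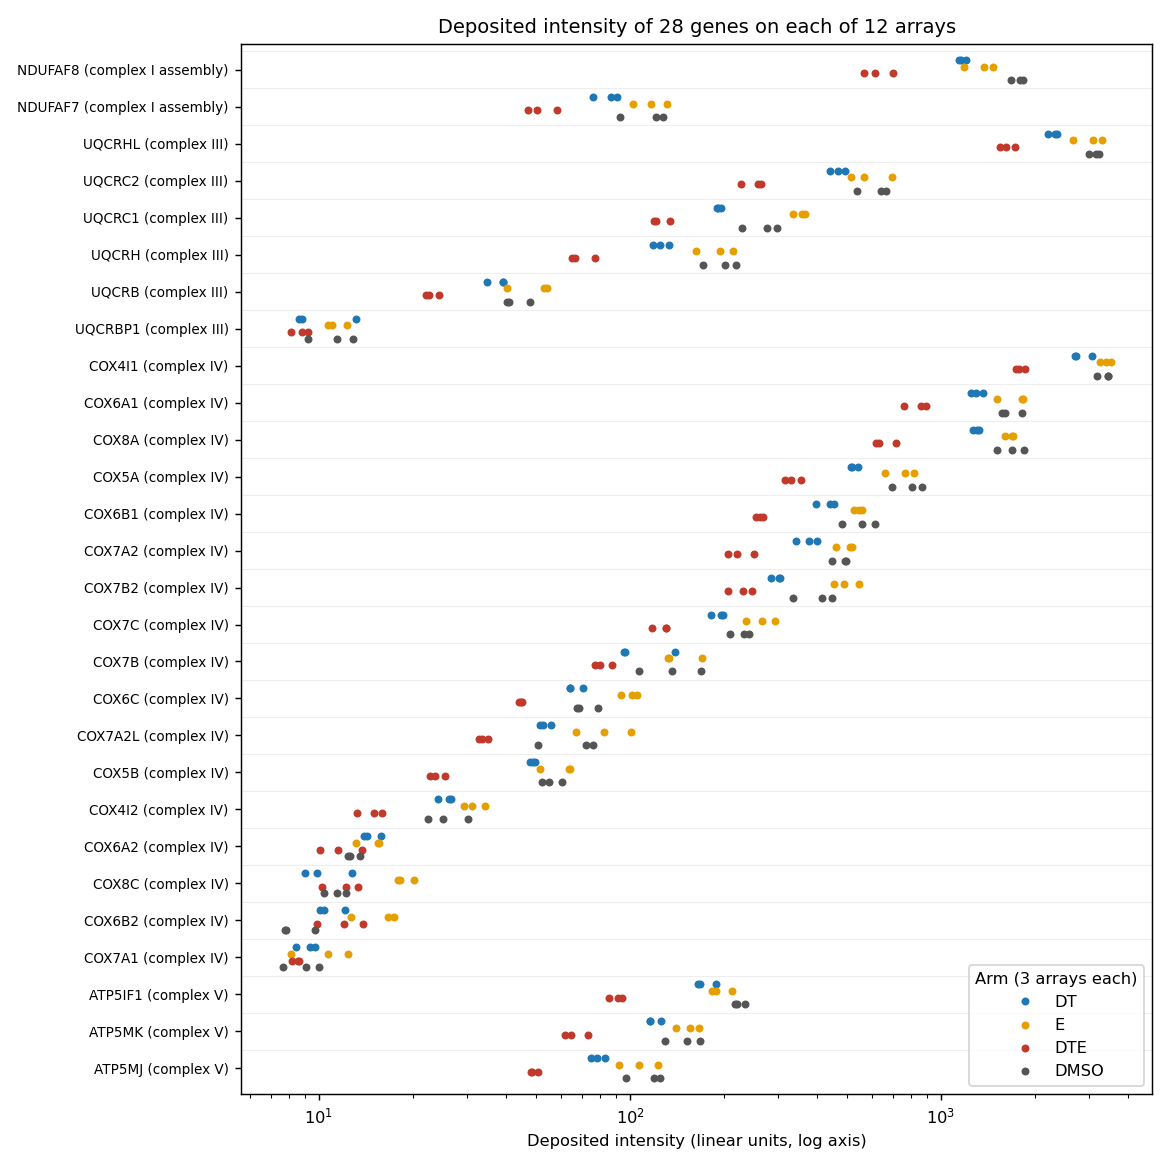
Deposited intensity of the 28 genes on every array (linear units on a log axis), by complex; each point is 1 array of DT, E, DTE or DMSO. UQCRHL is at 1542 or more on every array, and COX7A1 stays at 12.4 or less.

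Overall brightness differed between the arrays, which touches every result. Over all named genes the median intensity was 31.4 to 34.4 on the DT arrays and 39.4 to 51.6 on the E arrays. It was 22.9 to 25.1 on the DTE arrays and 33.4 to 41.3 on the DMSO arrays. For the 28 genes the median was 117 to 133 in DT and 151 to 191 in E. It was 71.6 to 78.7 in DTE and 149 to 192 in DMSO. The submitters' processing notes name RMA, but no source used here states how these linear values were scaled between arrays. Each difference is therefore given in deposited values and again, as the quantile value, after quantile normalization of the arrays over all named genes. Differences are log2 values with the standard error of the limma fit. Rose and fell mean an adjusted p under 0.05 over all 14582 genes in deposited values unless quantile values are named. On bulk arrays fewer cells and less RNA per cell cannot be told apart. Of the melanocyte lineage markers 7 of 7 measured were above background on all 12 arrays. Among 7 measured markers of epithelial, blood, endothelial and connective tissue cells, KRT5 and DCN were below background on every array, LUM was above it on 3, and KRT14, EPCAM, CD14 and VWF were above it on all 12, at 12.2 to 69.2. Summed over the 7 genes, these reached 142 to 159 in DT, 177 to 196 in E, 103 to 115 in DTE and 113 to 118 in DMSO, and the 7 melanocyte markers 4205 to 4734 in DT, 4252 to 6092 in E, 2427 to 2630 in DTE and 5044 to 5737 in DMSO. CD14 rose in DT and E (0.90 and 1.11), KRT14 in DT (0.70) and EPCAM in E (0.83), all 3 on both scales. TYRP1 rose in DT (0.81) and PMEL in E (0.67), also on both scales. LUM, near background, was called higher in E and DTE on both. MLANA and TYR fell in DTE on both scales (-2.09 and -1.885), and MLANA also in DT and E (-0.95 and -0.54). In DTE quantile values TYRP1 was higher (0.56), and PMEL, SOX10 and S100B did not pass. EPCAM fell in DT in deposited values alone (-0.41). The part of these markers in the results was not tested.

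Dabrafenib plus trametinib lowered 13 of the 28 genes (46.4%) and raised 0 in deposited values, where 23.1% of all genes were lower and 4.72% higher. The median of the 28 was -0.34, against -0.12 for all genes and -0.335 for the brightest 25%. After quantile normalization 1 of 28 was lower and 0 were higher, where 14.6% and 15.1% of all genes were called, and the median was -0.001. At an unadjusted p under 0.05 the counts were 15 lower and 1 higher in deposited values and 5 lower and 1 higher in quantile values. The deposited count of lower genes leaned on single arrays: it was 6, 4, 7, 5 and 8 without DMSO replicate 1, DMSO replicate 2, DT replicate 1, DT replicate 2 and DT replicate 3, 8 without DTE replicate 2, and 17 without DMSO replicate 3.

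NDUFAF8, a small partner of NDUFAF5 in building complex I, was lower on both scales. Its intensities were 1146, 1202 and 1156 in DT, against 1791, 1833 and 1676 in DMSO, and the groups did not overlap. It fell (-0.60 ± 0.13, adjusted p = 0.0015, and quantile value -0.37, adjusted p = 0.0086), and both calls were kept whichever array was left out. NDUFAF7, the other assembly factor of complex I, fell in deposited values (-0.42 ± 0.15, adjusted p = 0.039, and quantile value -0.073, adjusted p = 0.54). It lost that call when any 1 of 5 arrays was left out, with adjusted p up to 0.18 without DMSO replicate 1.

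In complex III, 4 of 6 genes fell in deposited values and 0 in quantile values. UQCRH, the hinge protein beside cytochrome c1, had 125, 134 and 119 in DT, against 219, 202 and 172 in DMSO, without overlap (-0.65 ± 0.14, adjusted p = 0.0012, and quantile value -0.28, adjusted p = 0.059). UQCRC1 and UQCRC2 are the large core proteins. UQCRC1 had 191, 196 and 192 in DT, against 276, 296 and 229 in DMSO (-0.46 ± 0.13, adjusted p = 0.011, and quantile value -0.115, adjusted p = 0.45) without overlap. Its call was lost with adjusted p = 0.074 without DMSO replicate 2. UQCRC2 measured -0.39 ± 0.14 (adjusted p = 0.041, quantile value 0.012) and lost its call when any 1 of 7 arrays was left out, with adjusted p up to 0.16 without DMSO replicate 1. UQCRHL measured -0.44 ± 0.13 (adjusted p = 0.013), and lost its call with adjusted p = 0.054 without DMSO replicate 2 and 0.054 without DT replicate 2. UQCRB, another small subunit, did not pass (-0.19 ± 0.14, adjusted p = 0.36).

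In complex IV, 5 of 17 genes fell in deposited values and 0 in quantile values. COX5A, which lies on the matrix side of the complex, had 517, 513 and 540 in DT, against 806, 866 and 696 in DMSO, and the groups did not overlap (-0.59 ± 0.135, adjusted p = 0.0018, and quantile value -0.195, adjusted p = 0.08). COX8A (-0.37), COX7B2 (-0.41), COX7A2 (-0.36) and COX6B1 (-0.35) fell as well. COX8A lost its call when any 1 of 5 arrays was left out, with adjusted p up to 0.16 without DMSO replicate 2, and COX7B2 when any 1 of 5 arrays was left out, with adjusted p up to 0.16 without DMSO replicate 2. COX7A2 lost it when any 1 of 9 arrays was left out, with adjusted p up to 0.18 without DT replicate 2, and COX6B1 when any 1 of 9 arrays was left out, with adjusted p up to 0.22 without DMSO replicate 2. COX4I1 (-0.25 ± 0.13), COX5B (-0.20 ± 0.13), COX6C (-0.11 ± 0.13) and COX7A2L (-0.30 ± 0.16), which joins complexes III and IV into supercomplexes, did not pass. COX4I2, the form of COX4 known from lung and low oxygen, averaged 25.6 ± 1.31 in DT and 25.9 ± 3.96 in DMSO (SD, n = 3 each).

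Of the ATP synthase genes, the small membrane subunit ATP5MJ had 83.1, 78.3 and 74.9 in DT, against 120, 125 and 97.3 in DMSO, without overlap. It fell in deposited values (-0.525 ± 0.14, adjusted p = 0.0063, and quantile value -0.17, adjusted p = 0.13) and kept that call whichever array was left out. ATP5IF1, the protein that inhibits ATP hydrolysis by the synthase, fell too (-0.36 ± 0.13, adjusted p = 0.037, and quantile value -0.01, adjusted p = 0.96), and lost the call when any 1 of 5 arrays was left out, with adjusted p up to 0.13 without DMSO replicate 2. The other small membrane subunit, ATP5MK, measured -0.32 ± 0.14 (adjusted p = 0.086).

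Counts under entinostat alone were small and their balance depended on the processing. In deposited values 4 of 28 (14.3%) were higher and 1 (3.57%) lower, where 20.8% and 4.81% of all genes were called. After quantile normalization 4 were higher and 2 lower, against 15.1% and 16.3% of all genes. The median was 0.05 in deposited values (0.14 for all genes) and -0.07 in quantile values. With median centring of the arrays 1 was higher and 9 lower, and with array weights 8 were higher and 2 lower. The share of all genes called is not given for these 2 settings. Median centring moved every gene by -0.29 here, and at most 1 of the 4 rises kept its call. All 5 genes called in deposited values had the same call in quantile values.

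UQCRC1 was the complex III gene that rose. Its intensities were 334, 366 and 358 in E, against 276, 296 and 229 in DMSO, and every E array lay above every DMSO array (0.41 ± 0.13, adjusted p = 0.027, and quantile value 0.34, adjusted p = 0.017). The deposited call was lost with adjusted p = 0.13 without DMSO replicate 3, 0.094 without E replicate 2 and 0.06 without E replicate 3. The quantile call was lost with adjusted p = 0.057 without DMSO replicate 1, 0.07 without E replicate 1 and 0.059 without E replicate 2. The other core protein UQCRC2, UQCRH, UQCRHL and UQCRB measured -0.064, -0.059, -0.056 and 0.18 (adjusted p from 0.38 to 0.81).

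COX6C, a small membrane subunit of complex IV, had 93.2, 101 and 105 in E, against 78.9, 68.8 and 67.3 in DMSO, without overlap. It rose (0.48 ± 0.13, adjusted p = 0.007, and quantile value 0.29, adjusted p = 0.028) and kept the deposited call whichever array was left out. The quantile call was lost with adjusted p = 0.06 without DMSO replicate 1, 0.12 without DMSO replicate 2, 0.11 without E replicate 1 and 0.06 without E replicate 2, and the quantile count of higher genes was 1, 2, 1 and 1 without DMSO replicate 1, DMSO replicate 2, E replicate 1 and E replicate 2. COX7B2 had 453, 488 and 546 in E, against 414, 447 and 334 in DMSO. Each E array exceeded the DMSO arrays, yet the difference did not pass (0.32 ± 0.14, adjusted p = 0.099, and quantile value 0.24, adjusted p = 0.077).

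The testis forms COX6B2 and COX8C were above background in E by their arm means, though COX6B2 on E replicate 1 was below that array's level of 13.15. COX8C had 20.1, 18 and 18.2 in E, against 12.2, 11.4 and 10.4 in DMSO, and was at least 1.57-fold higher in E in deposited values and at least 1.28-fold in quantile values (adjusted p = 0.00065, for the quantile value 0.047). Its quantile call was lost when any 1 of 7 arrays was left out, with adjusted p up to 0.18 without E replicate 1. COX6B2 had 12.6, 16.7 and 17.5 in E, against 7.81, 9.73 and 7.77 in DMSO, and was at least 1.3-fold higher in E in deposited values and at least 1.07-fold in quantile values (adjusted p = 0.00017, for the quantile value 0.0096), with both calls kept whichever array was left out. For these bounds each DMSO array was taken at the higher of its background level and its own value.

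NDUFAF8 was the gene that fell. It had 1186, 1372 and 1472 in E, against 1791, 1833 and 1676 in DMSO, without overlap (-0.40 ± 0.13, adjusted p = 0.03, and quantile value -0.49, adjusted p = 0.0013). The deposited call was lost with adjusted p = 0.072 without DMSO replicate 1, 0.096 without DMSO replicate 2, 0.092 without E replicate 1 and 0.064 without E replicate 2, and the quantile call was kept whichever array was left out. ATP5IF1 was lower in quantile values alone (-0.20 ± 0.13, adjusted p = 0.28, and quantile value -0.29, adjusted p = 0.037). That call was lost with adjusted p = 0.062 without DMSO replicate 2, 0.16 without DMSO replicate 3, 0.13 without E replicate 2 and 0.11 without E replicate 3.

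**Figure D2:**
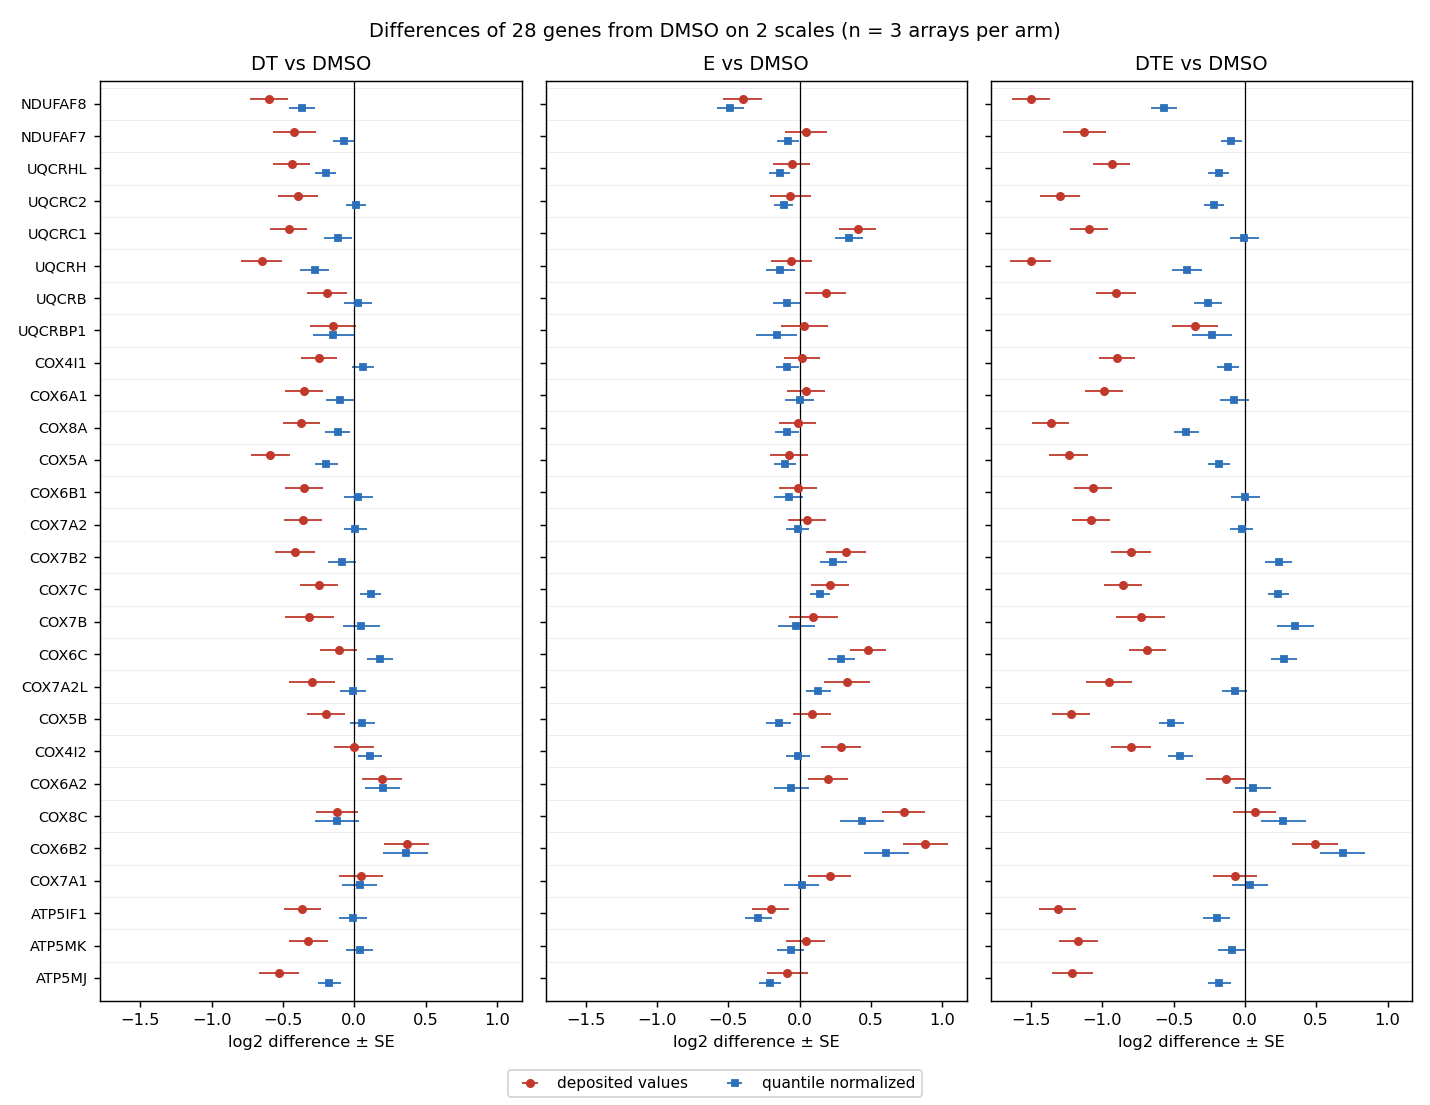
Log2 differences of the 28 genes from DMSO with the standard error of the fit, in DT, E and DTE (n = 3 arrays each), in deposited values and after quantile normalization. The deposited values of DTE centre on -0.97 and the quantile values on -0.09. NDUFAF8 alone is called lower in all 3 comparisons on both scales. Other genes, among them UQCRH and COX8A, also lie below 0 throughout, without a call in each. Points of genes not well above background are not exact.

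All 3 agents together lowered most of these genes in deposited values, to between 35.3% and 62.2% of DMSO for those that fell. There 23 of 28 (82.1%) were lower and 1 higher, where 60.8% of all genes were lower and 4.26% higher. The median was -0.97, against -0.54 for all genes. The 16 members among the brightest 25% of genes had a median of -1.09, and so had all genes of that brightness. In quantile values 7 of 28 (25%) were lower and 4 (14.3%) higher, against 22.4% and 20.5% of all genes, with a median of -0.09. Of the calls in quantile values 8 had the same direction as in deposited values and 3 the opposite. COX6A2, COX7A1, COX8C and UQCRBP1, which averaged 11.9 or less in DTE, did not pass in deposited values.

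**Figure D3:**
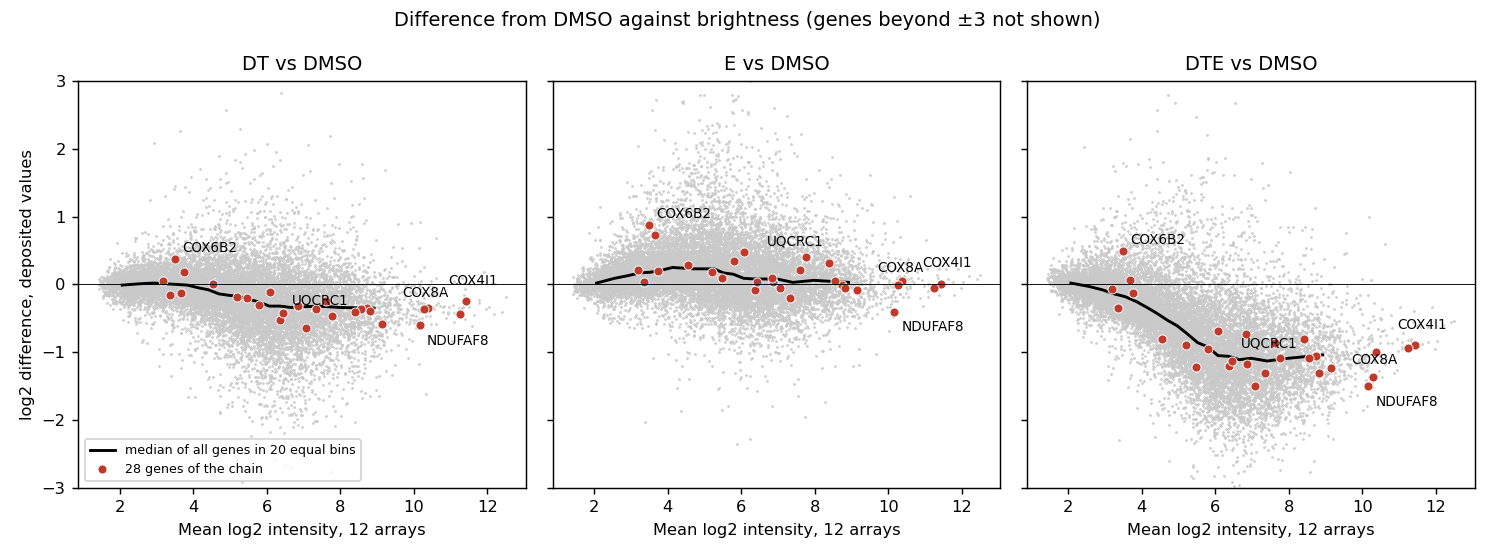
Log2 difference from DMSO in deposited values against mean log2 intensity over 12 arrays for DT, E and DTE, with all named genes, their running median and the 28 genes marked. In DTE the median of all genes is -1.09 among the brightest 25% and -0.07 among the dimmest 25%, and NDUFAF8 at -1.50 and UQCRH at -1.50 are the lowest of the 28.

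NDUFAF8, UQCRH, COX8A, COX5B and COX4I2 were lower on both scales in DTE and kept both calls whichever array was left out. NDUFAF8 had 615, 699 and 565 in DTE, against 1791, 1833 and 1676 in DMSO (-1.50 ± 0.13, adjusted p = 1.5e-09, and quantile value -0.57, adjusted p = 0.00024). UQCRH had 66.3, 77.4 and 65.2 in DTE, against 219, 202 and 172 in DMSO (-1.50 ± 0.14, adjusted p = 3.6e-09, and quantile value -0.41, adjusted p = 0.0059). Neither gene had overlapping groups. COX8A, the small subunit present in most tissues, had 632, 716 and 618 in DTE, against 1695, 1849 and 1515 in DMSO (-1.36 ± 0.13, adjusted p = 3.9e-09, and quantile value -0.41, adjusted p = 0.0016). COX5B, the zinc-binding subunit, had 22.7, 25.4 and 23.7 in DTE, against 54.9, 60.6 and 52.2 in DMSO (-1.22 ± 0.13, adjusted p = 2.9e-08, and quantile value -0.52, adjusted p = 0.00029). In both genes every DTE array lay far below every DMSO array. COX4I2 had 13.2, 15.1 and 16 in DTE, against 30.2, 25.1 and 22.4 in DMSO (-0.80 ± 0.14, adjusted p = 2.3e-05, and quantile value -0.45, adjusted p = 0.00068), so its DTE arrays came near the background level of 10.3 to 11.1 on those arrays.

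The core protein UQCRC2 and the subunit UQCRB were lower on both scales too, and their quantile calls leaned on single arrays. UQCRC2 had 228, 258 and 263 in DTE, against 667, 643 and 537 in DMSO (-1.30 ± 0.14, adjusted p = 3.3e-08, and quantile value -0.22, adjusted p = 0.024). Its quantile call was lost with adjusted p = 0.074 without DMSO replicate 1, 0.056 without DMSO replicate 3 and 0.073 without DTE replicate 1. UQCRB had 22.6, 24.4 and 22 in DTE, against 40.3, 47.9 and 41 in DMSO (-0.90 ± 0.14, adjusted p = 5.3e-06, and quantile value -0.26, adjusted p = 0.047), and lost its quantile call when any 1 of 10 arrays was left out, with adjusted p up to 0.18 without DTE replicate 3. UQCRC1 fell in deposited values and not in quantile values (-1.09 ± 0.13, adjusted p = 1.5e-07, and quantile value -0.004, adjusted p = 0.98).

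COX6C, COX7B and COX7C, small subunits of complex IV, fell in deposited values and were higher in quantile values, so their direction depends on the scaling. COX6C had 45, 43.8 and 44.5 in DTE, against 78.9, 68.8 and 67.3 in DMSO (-0.685 ± 0.13, adjusted p = 5.4e-05, and quantile value 0.27, adjusted p = 0.03). Its quantile call was lost with adjusted p = 0.061 without DMSO replicate 1, 0.13 without DMSO replicate 2 and 0.12 without DTE replicate 1. COX7C had 118, 130 and 130 in DTE, against 242, 233 and 210 in DMSO (-0.86 ± 0.13, adjusted p = 4.5e-06, and quantile value 0.23, adjusted p = 0.02). Its quantile call was lost with adjusted p = 0.054 without DMSO replicate 1, 0.083 without DMSO replicate 2 and 0.058 without DTE replicate 2. COX7B was called in opposite directions too (-0.73 ± 0.17, adjusted p = 0.00067, and quantile value 0.35, adjusted p = 0.041), and lost the quantile call when any 1 of 6 arrays was left out, with adjusted p up to 0.14 without DMSO replicate 3. The quantile count of higher genes was 1 without DMSO replicate 1 and 2 without DMSO replicate 2, DTE replicate 1 or DTE replicate 2. COX6B2 was the gene higher in deposited values, with 12, 13.9 and 9.82 in DTE, against 7.81, 9.73 and 7.77 in DMSO (adjusted p = 0.0092, for the quantile value 0.0031), and the deposited call was lost with adjusted p = 0.072 without DTE replicate 2. It was not well above background in DMSO and near background in DTE, so no size is given.

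The ATP synthase genes ATP5IF1, ATP5MJ and ATP5MK fell by 1.31, 1.21 and 1.17 in deposited values, and their quantile values did not pass (-0.20, -0.18 and -0.093, adjusted p = 0.12, 0.088 and 0.46). The same held for COX4I1 (-0.90 ± 0.13, quantile value -0.12), COX5A (-1.24 ± 0.135, quantile value -0.18), COX6A1, the form of COX6A found in most tissues (-0.99 ± 0.135, quantile value -0.074), COX6B1 (-1.06 ± 0.13, quantile value 0.003) and COX7A2 (-1.08 ± 0.13, quantile value -0.023). COX7A2L measured -0.955 ± 0.16 (quantile value -0.072, adjusted p = 0.56).

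**Figure D4:**
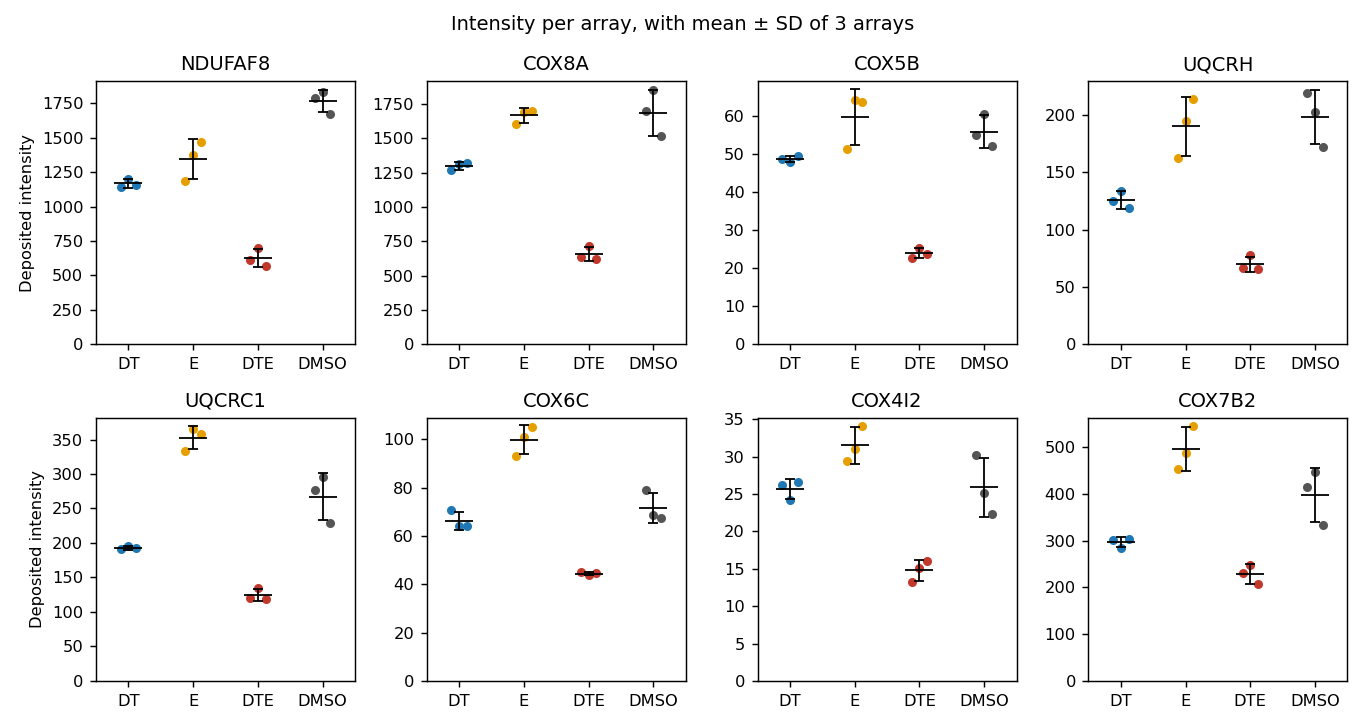
Deposited intensity per array (points) with the mean and SD of 3 arrays for NDUFAF8, COX8A, COX5B, UQCRH, UQCRC1, COX6C, COX4I2 and COX7B2 in DT, E, DTE and DMSO. DTE is the lowest arm in all 8 panels. NDUFAF8 averages 1168 in DT, 1343 in E and 627 in DTE against 1767 in DMSO. UQCRC1, COX6C, COX5B, COX4I2 and COX7B2 have their highest mean in E. Of these, UQCRC1 and COX6C were called higher in E than in DMSO, and the others were not.

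DTE was then set against each partial treatment. Against DT, 24 of 28 genes (85.7%) were lower in deposited values and 0 higher, where 54% and 4.09% of all genes were called, with a median of -0.655 (all genes -0.41, brightest 25% -0.73). In quantile values 5 were lower and 1 higher, against 17.9% and 16.4% of all genes. COX5B had 22.7, 25.4 and 23.7 in DTE, against 48.7, 47.9 and 49.4 in DT (-1.03 ± 0.13, adjusted p = 1.3e-06, and quantile value -0.57, adjusted p = 2e-04). COX4I2 had 13.2, 15.1 and 16 in DTE, against 26.1, 24.1 and 26.6 in DT (-0.80 ± 0.14, adjusted p = 4.6e-05, and quantile value -0.56, adjusted p = 0.00019). In both genes the groups lay apart, and both calls were kept whichever array was left out. COX8A (quantile value -0.295, adjusted p = 0.018), UQCRC2 (-0.23, adjusted p = 0.023) and UQCRB (-0.28, adjusted p = 0.04) were lower on both scales too. COX8A lost the quantile call when either of 2 arrays was left out, with adjusted p up to 0.077 without DT replicate 2, UQCRC2 when either of 2 arrays was left out, with adjusted p up to 0.071 without DTE replicate 1, and UQCRB when any 1 of 5 arrays was left out, with adjusted p up to 0.15 without DTE replicate 3. COX7B2 had 231, 247 and 206 in DTE, against 302, 285 and 304 in DT, without overlap, and was called lower in deposited values and higher in quantile values (-0.38 ± 0.14, adjusted p = 0.022, and quantile value 0.32, adjusted p = 0.018). It lost the deposited call when any 1 of 3 arrays was left out, with adjusted p up to 0.099 without DTE replicate 3, and the quantile call when any 1 of 4 arrays was left out, with adjusted p up to 0.077 without DTE replicate 1. The quantile count of lower genes was 2 without DT replicate 2 and 3 without DTE replicate 3, and that of higher genes was 0 without DT replicate 3, DTE replicate 1 or DTE replicate 2 and 3 without DTE replicate 3.

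Against E, 27 of 28 genes (96.4%) were lower in deposited values and 0 higher (also 0 at an unadjusted p under 0.05), where 78.5% and 0.247% of all genes were called. The median was -1.105 (all genes -0.82, brightest 25% -1.13). In quantile values 4 were lower and 0 higher, or 6 and 1 unadjusted, against 9.99% and 10.1% of all genes. UQCRC1 had 121, 134 and 119 in DTE, against 334, 366 and 358 in E, the widest gap among the 28 genes in deposited values (-1.50 ± 0.13, adjusted p = 2.2e-09, and quantile value -0.35, adjusted p = 0.024). COX8A (-1.35 ± 0.13, quantile value -0.32), COX5B (-1.31 ± 0.13, quantile value -0.37) and COX4I2 (-1.09 ± 0.14, quantile value -0.44) were lower on both scales as well. COX5B and COX4I2 kept both calls whichever array was left out. UQCRC1 lost its quantile call with adjusted p = 0.093 without E replicate 1, 0.081 without E replicate 2 and 0.096 without DTE replicate 3, and COX8A with adjusted p = 0.073 without E replicate 1, 0.056 without E replicate 2 and 0.07 without DTE replicate 3, and the quantile count was 2 without each of these. The comparisons share arrays, so their lists are not independent of one another.

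The interaction is the effect of entinostat on top of dabrafenib plus trametinib less its effect in vehicle. In deposited values it was negative for all 28 genes, from -1.12 to -0.24. It was called below 0 for 25 of 28 (89.3%) and above 0 for 0, also unadjusted, where 62.5% and 0.206% of all genes were called. The median was -0.75 (all genes -0.63, brightest 25% -0.79). In quantile values it was called for COX4I2 (-0.55, adjusted p = 0.021), against 2.12% of all genes below 0 and 2.08% above. COX4I2 averaged 25.6 ± 1.31 in DT, 31.5 ± 2.44 in E, 14.8 ± 1.4 in DTE and 25.9 ± 3.96 in DMSO (SD, n = 3 each), so DTE was the low arm. The quantile call was lost with adjusted p = 0.058 without DMSO replicate 2, 0.054 without DMSO replicate 3 and 0.055 without E replicate 1. COX5B came next in quantile values (-0.42, adjusted p = 0.074).

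Other genes of the chain, its assembly and its surroundings were taken from lists. CYC1, the haem-bearing cytochrome c1 of complex III, had 826, 812 and 865 in DT, 794, 936 and 959 in E, 353, 360 and 318 in DTE, and 1194, 1432 and 1171 in DMSO. It was lower than in DMSO in every treated arm and on both scales (-0.60 in DT, -0.50 in E and -1.88 in DTE, quantile values -0.305, -0.55 and -0.87). COXFA4L3, a relative of the complex IV subunit COXFA4, had 27.8, 29.6 and 22.2 in DT, 275, 274 and 300 in E, 125, 146 and 117 in DTE, and 30.6, 40.6 and 35.7 in DMSO. It rose in E (3.00 ± 0.15, quantile value 2.70) and in DTE (1.86 ± 0.15, quantile value 2.725). ETFDH, which feeds electrons from fat oxidation to ubiquinone, rose in E (0.47 ± 0.14, quantile value 0.28). In DTE it fell in deposited values (-0.46 ± 0.14) and was higher in quantile values (0.51, adjusted p = 5.6e-05).

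Of 43 measured assembly factors outside the rule 26 fell in DT, 6 fell and 2 rose in E, and 43 fell in DTE, with medians of -0.47, -0.03 and -1.14. Of all genes 23.1% were lower in DT, 4.81% lower and 20.8% higher in E, and 60.8% lower in DTE. In quantile values 14 were lower and 2 higher in DT, 18 lower and 3 higher in E, and 23 lower and 2 higher in DTE, with medians of -0.12, -0.20 and -0.28, where 14.6%, 16.3% and 22.4% of all genes were lower in DT, E and DTE. These shares are also the background of the lists that follow. COA7, a factor of complex IV, had 45.1, 35.6 and 47.5 in DT, 84.8, 82.2 and 108 in E, 23.2, 32.6 and 29.7 in DTE, and 112, 111 and 99.8 in DMSO. It fell in DT and DTE (-1.34 and -1.93, quantile values -0.97 and -1.04). COA6, also of complex IV (-1.13 and -2.08, quantile values -0.74 and -1.03), UQCC2, of complex III (-0.96 and -1.92, quantile values -0.59 and -0.83) and TMEM126B, of complex I (-0.97 and -1.94, quantile values -0.59 and -0.86), fell in DT and DTE on both scales. In E, COA6 and UQCC2 also fell on both scales (-0.54 and -0.41, quantile values -0.64 and -0.46). TMEM126B and COA7 were lower in E in quantile values alone (-0.35 and -0.365). SDHAF3, of complex II, rose in E (0.60 ± 0.14, quantile value 0.525), and in DTE it was lower in deposited values (-0.49) and higher in quantile values (0.565).

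Among 9 measured regulators of mitochondrial content 5 fell in DT, 2 in E and 7 in DTE, and 0 rose (4, 3 and 5 lower in quantile values). With 9 genes the 7 in DTE are not far from the 60.8% of all genes. The gene of PGC-1α is not among the 9. NRF1 did not pass in DT or E. It was lower in DTE on both scales (-1.17, adjusted p = 8.6e-07, and quantile value -0.28, adjusted p = 0.021). MITF had 126, 116 and 124 in DT, 320, 403 and 488 in E, 104, 114 and 124 in DTE, and 574, 537 and 454 in DMSO. It was low with dabrafenib and trametinib, with or without entinostat (-2.09 in DT and -2.19 in DTE, quantile values -1.73 and -1.10). In E, MITF was lower in quantile values alone (-0.46, adjusted p = 0.00076, and deposited value -0.39, adjusted p = 0.066). In DTE against DT it was higher in quantile values alone (0.63, adjusted p = 4.9e-05). MYC, a broad growth regulator, fell in all 3 arms (-2.57 in DT, -1.35 in E and -2.83 in DTE, quantile values -2.18, -1.45 and -1.85). The mitochondrial RNA polymerase POLRMT (-0.88 in DT and -1.72 in DTE) and the mitochondrial helicase TWNK (-1.03 in DT and -1.75 in DTE) fell in both, also in quantile values. TWNK fell in E too (-0.525, quantile value -0.66).

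Of 7 citrate cycle genes 5 fell in DT, 2 fell and 1 rose in E, and 7 fell in DTE (3 lower in DT, 2 lower and 1 higher in E, and 4 lower and 1 higher in DTE in quantile values). OGDH, part of the oxoglutarate dehydrogenase complex, had 234, 186 and 237 in DT, 593, 660 and 682 in E, 239, 230 and 238 in DTE, and 314, 348 and 306 in DMSO. It rose in E (1.00 ± 0.135, quantile value 0.92), while in DTE it fell in deposited values (-0.45) and was higher in quantile values (0.60). IDH3B, a subunit of isocitrate dehydrogenase, fell in DTE on both scales (-1.89 ± 0.13, quantile value -0.80). Of 8 glycolysis genes 6 fell in DT, 1 in E and 8 in DTE (4 lower in DT, 4 lower in E, and 1 lower and 2 higher in DTE in quantile values), and the quantile counts in DTE are near the 22.4% lower and 20.5% higher of all genes. Hexokinase HK2 had 63.5, 55.1 and 56.5 in DT, 84.8, 124 and 143 in E, 27.8, 33.6 and 35.5 in DTE, and 186, 190 and 147 in DMSO, and fell in all 3 arms on both scales (-1.57 in DT, -0.60 in E and -2.43 in DTE). The porin genes VDAC1, VDAC2 and VDAC3 fell in DT and DTE in deposited values, and in quantile values VDAC1 alone passed, in DT (-0.36, adjusted p = 0.0033).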

How the data were processed

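Intensities of 12 arrays, 3 in each of 4 arms, were read from the value table of the series. The authors deposited linear intensities per probe set. Per the submitters' processing notes RMA and Transcriptome Analysis Console were used, with no version. How the deposited values were scaled between arrays is not stated. Their medians over all named genes ran from 22.9 (DTE replicate 1) to 51.6 (E replicate 3). Of 29398 probe sets 14750 (50.2%) carried 1 gene name in the platform annotation, updated through RefSeq gene identifiers. They gave 14582 genes, each taken by its probe set with the highest mean. Of the 28 genes COX6A1 had a second probe set, which was dim.

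Log2 values, with no filter, were fitted over all 12 arrays with a mean per arm in limma (version 3.58.1, lmFit and eBayes, R 4.3.3), with Benjamini-Hochberg adjustment over all genes and a threshold of 0.05. The fit was tested on simulated data with no shift in brightness between arrays, so that test says nothing about the scaling. Members and lists were chosen with earlier results of these data known, as was the rule for named genes: the largest changes per comparison, core and tissue-restricted forms, genes called in opposite directions on the 2 scales, and the strongest genes of each list. Other members are named to complete a complex. The background level was defined after the values were seen. The alternatives were quantile normalization, median centring, leaving out the dimmest 25% of genes, the mean of probe sets, a trended and robust variance model, array weights, fitting only the groups compared, a replicate block and leaving out each array. Between arrays of the same arm the correlation across genes was 0.991 to 0.994, and 0 pairs were identical. The number of arrays limits the precision.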

Additional observations from a re-analysis of the deposited data

Results flagged for a closer look

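By the interaction term of the limma fit in deposited values (adjusted p under 0.05), the effect of entinostat differed between cells with and without dabrafenib plus trametinib for 25 of the 28 genes, where 62.5% of all genes had an interaction called below 0. On the log2 scale it was -0.665 for COX4I1, -1.09 for COX4I2, -0.57 for COX5A, -1.12 for COX5B, -0.68 for COX6A1, -0.52 for COX6A2, -0.70 for COX6B1, -0.76 for COX6B2, -1.055 for COX6C, -0.775 for COX7A2, -0.99 for COX7A2L, -0.71 for COX7B2, -0.83 for COX7C, -0.98 for COX8A and -0.54 for COX8C in complex IV. In complex III it was -0.89 for UQCRB, -1.04 for UQCRC1, -0.84 for UQCRC2, -0.795 for UQCRH and -0.44 for UQCRHL. In the ATP synthase it was -0.745 for ATP5IF1, -0.60 for ATP5MJ and -0.89 for ATP5MK, and among the assembly factors of complex I -0.75 for NDUFAF7 and -0.50 for NDUFAF8. The interaction was -0.63 in the median of all genes and -0.79 in the median of the brightest 25%. COX6B2 and COX8C were not well above background in DT and DMSO, so their values are not exact. After quantile normalization it passed for COX4I2 among the 28. Groups of 3 arrays were too small to look for single outlying arrays.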

How the results depend on the processing

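The scaling between arrays decided most counts. After quantile normalization 1 of the 28 genes was lower in DT (median -0.001), and 4 were higher and 2 lower in E. In DTE against DMSO 4 were higher and 7 lower (median -0.094), against DT 1 higher and 5 lower (median -0.028), against E 4 lower (median -0.039), and 1 interaction was called below 0 (median -0.022). The shares of all genes called are given for deposited and quantile values alone, so counts under the other settings have no background beside them. After median centring 2 were higher and 4 lower in DT (median -0.14), and 1 higher and 9 lower in E (median -0.24). In DTE against DMSO 4 were then higher and 19 lower (median -0.33). Against DT 2 were higher and 12 lower (median -0.21), and against E 4 higher and 10 lower (median -0.18). With median centring 0 interactions were called in limma, and at an unadjusted p under 0.05 there were 3 above 0 and 3 below (median -0.017).

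Of the genes called in deposited values, 3 of 13 in DT, 0 of 5 in E, 5 of 24 in DTE against DMSO, 8 of 24 against DT, 7 of 27 against E and 10 of 25 in the interaction had the opposite sign after quantile normalization. Among the named genes the sign turned for UQCRC2 in DT (0.012), for COX7B2 (0.24), COX7C (0.23), COX6C (0.27) and COX7B (0.35) in DTE against DMSO, and for UQCRC1 (0.11), COX5A (0.014) and COX7B2 (0.32) in DTE against DT. It also turned for ATP5IF1 (0.09), COX6A2 (0.115) and COX6B2 (0.077) in DTE against E, and for COX5A (0.11), ATP5IF1 (0.10) and COX7B2 (0.086) in the interaction. Median centring moves every gene of a comparison by the same amount (0.64 in DTE against DMSO, 0.93 against E). By construction this turns each difference of the opposite sign that is smaller than the shift, such as COX4I1 against E (-0.91 in deposited values). Of the genes called in deposited values, median centring turned 0 of 24 in DTE against DMSO and 7 of 27 against E. Among the named genes it turned COX6A2 (0.51) and COX7A1 (0.57) in DTE against DMSO, and COX6A2 (0.12) and COX7B2 (0.061) in DTE against DT. It turned COX4I1 (0.015), COX6A2 (0.60), COX6B2 (0.54), COX7A1 (0.65) and COX8C (0.27) in DTE against E, and COX4I1 (0.065), COX5A (0.16), COX6A2 (0.21), COX7B2 (0.024) and COX8C (0.19) in the interaction. For quantile normalization the cause was not tested.

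Without the dimmest 25% of genes, which hold COX6B2 and COX8C, 2 genes were higher in E and 0 in DTE against DMSO. With array weights 8 were higher and 2 lower in E, and in a fit of E and DMSO alone 0 were lower. The replicate numbers did not pair the arrays. Same-numbered arrays of different arms correlated at -0.221 to 0.126 in their deviations, with 2 of 18 pairs over 0.1, and 3 of 12 arrays correlated best with their own number. With the replicate block 7 genes were lower in DT, and the other counts moved by less than 1.5 times.

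Leaving out each array in turn gave 4 to 17 lower in DT (median -0.417 to -0.28), 3 to 5 higher and 0 to 1 lower in E (-0.012 to 0.137), 0 to 1 higher and 23 to 24 lower in DTE against DMSO (-1.08 to -0.917), 21 to 24 lower in DTE against DT (-0.688 to -0.643), 24 to 28 lower in DTE against E (-1.18 to -1.03), and 22 to 26 called below 0 in the interaction (-0.801 to -0.669). Signal near background limits COX6A2, COX6B2, COX7A1, COX8C and UQCRBP1, whose values are not exact.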
